A study of Mus musculus with 4 samples.

Results

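Voltage-gated potassium, sodium and calcium channels, with the inward rectifier, leak, calcium-activated and HCN channels and their auxiliary subunits, were examined in cultured neural stem cells of the mouse cerebral cortex. Members were the genes of the count tables whose symbol began with Kcn followed by a letter from a to v, with Scn and a digit, or with Cacn, and the 4 genes of the HCN family. Kcne2, Kcnj13, Kcnk9 and Kcnq1ot1 were left out. The rule found 138 genes among 24421, of which 135 are annotated as protein-coding and 3 are opposite-strand transcripts of channel genes. Of the 138 members, 115 were counted often enough to be tested and 23 were not. None of the 23 had more than 20 counts in a library, and Kcnk16 had 0 counts in all 4.

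The cells came from C57BL/6J embryos at embryonic day 17 and were kept for 1 day in medium with basic FGF and EGF. Poly(A) RNA was sequenced in 4 libraries. The 2 control libraries carried the genotype Prrc2bf/f, in which Prrc2b alleles are flanked by loxP sites and no Cre is present. The 2 labelled-knockout libraries carried Prrc2bf/f; Nestin-Cre, the same floxed alleles plus Cre recombinase under Nestin (Nes) control. Deletion is therefore limited to cells with a Nestin-expressing history, and both groups share the floxed alleles. The labels do not state whether the replicates are separate cultures or animals; p-values therefore measure spread among these libraries only, which may be technical.

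Counts assigned to genes ranged from 25936794 to 28263272 per library. Prrc2b, counted over all its exons, stood at 591 counts-per-million (CPM) in control and 574 CPM in the labelled-knockout libraries (log2 fold change -0.04 ± 0.02 SE, edgeR quasi-likelihood test, adjusted p = 0.134). Reads from exons that remain after deletion are still counted, so this total does not check the label. Uty, Kdm5d, Ddx3y and Eif2s3y, all on the Y chromosome, summed to 64.7 and 67.5 CPM in the control libraries and were at 0 counts in each of the other libraries. Xist, the RNA that coats the silenced X of females, had means of 1644 CPM (control) and 2164 CPM (labelled knockout), a log2 fold change of 0.40 ± 0.02, so female RNA was present in both groups and Y-linked RNA in control alone. This difference in sex makeup runs along with genotype and Cre, and its part in the values below cannot be told apart from theirs. All 6 radial glia and stem cell markers examined were detected, and they summed to 5515 to 5524 CPM in control and 4831 to 4844 CPM in the labelled-knockout libraries. Of these, Nes (630.2 to 539.5 CPM) and Vim (3003 to 2416 CPM) were lower, Hes5 was higher (33.5 to 62.1 CPM), and Sox2, Pax6 and Fabp7 did not pass. All 6 astrocyte markers examined were lower (summed 3579 to 3603 CPM in control, 2500 to 2509 CPM in the labelled-knockout libraries). Of 7 neuron markers 4 were higher and 3 did not pass (2145 to 2151 against 2454 to 2469 CPM). Of 6 oligodendrocyte precursor markers 4 were higher and 1 lower (1372 to 1411 against 1503 to 1546 CPM), and of 6 interneuron markers 4 were lower and 1 higher (212 to 213 against 198 to 207 CPM). All 5 choroid plexus markers were higher (188 to 195 against 1320 to 1336 CPM), and all 5 fibroblast markers lower (165 to 169 against 44.0 to 48.3 CPM). Of all genes tested, 15.1% were called higher and 18.1% lower. The part of these marker differences in the channel results was not tested. In bulk RNA fewer cells of a type and less RNA per cell cannot be told apart.

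Voltage-gated channels open when the membrane depolarises. Sodium channels carry the upstroke of the action potential, potassium channels repolarise the cell, and calcium channels couple electrical activity to secretion and transcription. Each channel is built from a pore subunit, a single long chain in sodium and calcium channels and a tetramer in potassium channels, and from auxiliary subunits that set its trafficking and gating. Dividing cortical progenitors are electrically quiet cells whose resting potential depends on leak and inward rectifier potassium channels. The full set of voltage-gated channels is acquired as neurons mature.

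Potassium channel transcripts made up most of the channel RNA. The 91 potassium channel members summed to 1782 to 1796 CPM in control and 1826 to 1836 CPM in the labelled-knockout libraries. The 26 calcium channel members summed to 914 to 918 CPM against 903 to 920 CPM, and the 14 sodium channel members to 353 to 357 CPM against 326 to 329 CPM. The 4 HCN genes summed to 60.8 to 63.7 CPM against 60.1 to 60.7 CPM. The potassium sum of every library labelled knockout was above both control libraries, the sodium sum below both, and the calcium ranges overlapped. These sums are weighted to abundant genes and do not describe each class as a whole. Kcnc1 alone went from a mean of 330 to 359 CPM. At an adjusted p under 0.05 by edgeR, 6 of 74 tested potassium members rose and 9 fell (median log2 fold change 0.01). Of 10 tested sodium members 3 fell and 7 did not pass. Of all genes tested, 64.9% had fully separated groups. The 10 most abundant members held 48.5% of all channel CPM. On a scale of CPM per kb of exon, which allows comparison between genes, the highest members were Kcnip3 (43.5 in control, 46.0 in the labelled-knockout libraries), which encodes a calcium-binding Kv4 partner also known as a transcriptional repressor, and Kcnc1 (34.8 and 37.9), a pore of the fast-deactivating Kv3 group. The TARP gene Cacng7 (32.9 and 34.5) and the glial inward rectifier gene Kcnj10 (32.1 and 32.7) came next. The most abundant sodium channel pore per length was Scn2a1 (4.81 and 4.74), and the most abundant calcium channel pore was the low-voltage-activated Cacna1h (13.5 and 13.0).

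At an adjusted p under 0.05 (edgeR quasi-likelihood test), 8 members were higher and 16 were lower in the labelled-knockout libraries, or 20.9% of the 115 tested. Of all 15012 genes tested, 33.1% passed, 15.1% as higher and 18.1% as lower, while members passed as higher in 6.96% and as lower in 13.9%. The share called among members was thus below that of all genes. The same all-gene shares stand beside each family, marker and partner count given here. Members were also less abundant, with a median of 10.8 CPM against 29.8 CPM for all tested genes; the part of this in the lower share was not tested. The median log2 fold change of the tested members was -0.0028, beside 0.0047 for all genes, and the median absolute value was 0.12 for both sets. Of the 24 members called, 20 changed by less than 1.5-fold. The groups' libraries were fully separated for 59 tested members (51.3%), against 64.9% of all genes tested. At an unadjusted p under 0.05 there were 33 of the 115 tested members, against 6269 of all 15012 genes tested (41.8%). DESeq2 called 2 members higher and 5 lower (7.03% and 10.9% of all genes), among them Cacna1c, Kcnc1, Cacng5, Kcnk2 and Kcnf1. Upper quartile scaling gave 15 higher and 12 lower (19.6% and 15.2% of all genes), and with no low-count filter there were 4 and 12 (9.19% and 12% of all genes). At an adjusted p under 0.01 there were 4 and 8 (9.93% and 13.6% of all genes), and with a replicate block 9 and 16 (16.3% and 19.2%). Without control replicate 1 or 2 the counts were 4 and 11 or 8 and 11, beside 11.9% and 15.1% or 12.1% and 16% of all genes. Without knockout replicate 1 or 2 they were 3 and 11 or 4 and 12, beside 11.4% and 14.7% or 11.3% and 14.7%. Where a single gene's call was lost in a fit without 1 library, a number in parentheses follows that library. It is the gene's adjusted p in that fit. Losses given for a gene are not complete lists. The calls of Kcnma1, Kcnip1, Kcnk10, Cacnb2, Cacnb3, Cacna2d3, Kcnj6 and Kcnc4 were also lost with DESeq2. Those of Kcnj6 and Kcnc4 were also lost with no low-count filter.

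**Figure D1:**
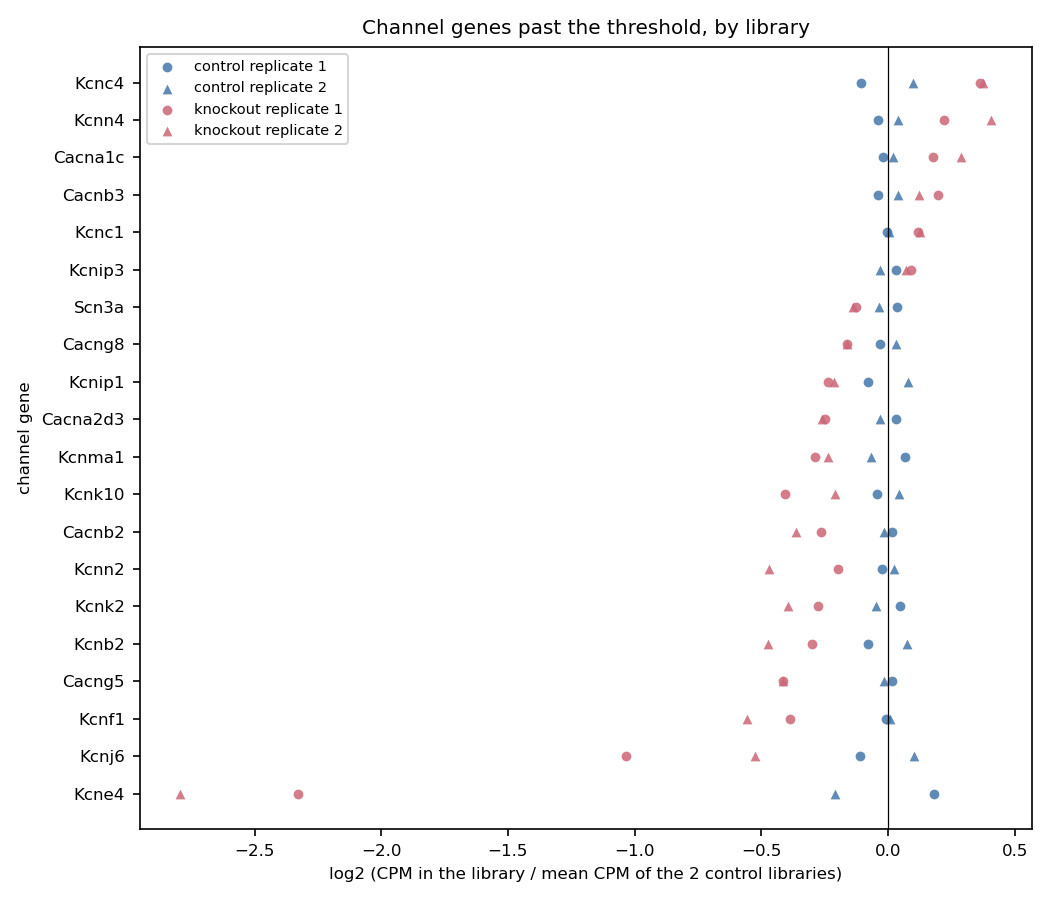
Level in each library of 20 of the channel genes past the threshold, as log2 of its CPM over the mean of the 2 control libraries (x axis), ordered by fitted fold change (y axis). Circles are replicate 1 and triangles replicate 2, blue control and red labelled knockout. For each gene shown the red and blue points do not overlap, and most red points lie within 0.5 of 0. The genes were chosen by a test on these same libraries, so their separation is no further evidence. It was also seen for 64.9% of all genes tested.

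Promoter sequences of 4 members are shown to set side by side a pair that fell, one that rose and a glial gene that did not pass. They are the 300 bases from 250 before to 50 after the annotated start, 5′ to 3′ on the gene's strand, from RefSeq on GRCm38.p6. Of the listed starts, the nearest to the 5′ end of the GENCODE M21 gene was used. Capitals mark the GC box, GGGCGG or its reverse complement CCGCCC, a short motif of CpG-rich promoters. Cacng5 lies at chr11:107915006-107915305 (minus strand), Kcnk2 at chr1:189402224-189402523 (minus), Kcnc1 at chr7:46396218-46396517 (plus) and Kcnj10 at chr1:172340960-172341259 (plus).
Cacng5: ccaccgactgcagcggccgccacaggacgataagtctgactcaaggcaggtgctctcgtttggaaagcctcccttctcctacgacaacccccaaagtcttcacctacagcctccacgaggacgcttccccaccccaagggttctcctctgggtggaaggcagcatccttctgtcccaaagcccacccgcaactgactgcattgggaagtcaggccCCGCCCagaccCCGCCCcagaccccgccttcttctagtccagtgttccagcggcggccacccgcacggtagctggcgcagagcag
Kcnk2: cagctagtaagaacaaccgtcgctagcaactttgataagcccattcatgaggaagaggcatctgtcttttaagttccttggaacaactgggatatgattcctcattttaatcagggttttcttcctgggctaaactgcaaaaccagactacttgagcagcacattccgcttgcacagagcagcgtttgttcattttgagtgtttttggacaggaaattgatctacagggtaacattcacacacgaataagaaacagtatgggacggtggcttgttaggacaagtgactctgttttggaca
Kcnc1: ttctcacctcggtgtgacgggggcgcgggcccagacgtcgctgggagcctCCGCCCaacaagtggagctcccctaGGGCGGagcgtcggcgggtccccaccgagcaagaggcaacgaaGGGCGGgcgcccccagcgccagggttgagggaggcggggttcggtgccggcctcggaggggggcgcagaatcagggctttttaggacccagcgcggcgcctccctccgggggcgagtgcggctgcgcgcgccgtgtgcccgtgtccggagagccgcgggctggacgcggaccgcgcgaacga
Kcnj10: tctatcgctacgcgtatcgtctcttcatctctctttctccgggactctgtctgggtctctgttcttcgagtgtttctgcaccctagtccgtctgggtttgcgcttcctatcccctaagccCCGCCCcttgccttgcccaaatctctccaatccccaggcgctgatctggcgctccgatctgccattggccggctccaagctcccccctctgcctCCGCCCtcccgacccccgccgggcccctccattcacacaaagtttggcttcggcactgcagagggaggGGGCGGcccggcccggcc
The GC box was found 2 times in Cacng5, 0 times in Kcnk2, and 3 times each in Kcnc1 and Kcnj10. GC content was 63.3%, 43.0%, 74.7% and 63.7%. Of windows not shown, Cacna1c, the riser with the smallest p by edgeR, had 0 GC boxes and 51.3% GC. Kcnf1, which fell, had 0 and 53.0%. RefSeq promoters were matched for 101 members. Each member has a single window, while the full set holds every listed start, so a gene can be counted there more than once. Some member windows lie far from the GENCODE gene start, such as those of Kcnip4 (239248 bases) and Cacna1e (158581 bases). A GC box was present in 48.5% of them and in 35.7% of all 32851 promoters of the same length. It was present in 4 of 6 matched members that rose and 5 of 11 that fell. The TATA box TATAAA, read on both strands, was present in 2.97% of member promoters and 13.6% of all promoters, and in none of the 17 matched members that rose or fell. The E-box CAGCTG was present in 25.7% and 16.3%, in 2 of 6 members that rose and 5 of 11 that fell. These matches describe the letters of the windows and were not tested.

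Among sodium channel genes, 3 of 10 tested fell and 0 rose by edgeR, beside 18.1% and 15.1% of all genes tested. At an unadjusted p under 0.05 the counts were 4 and 0, and DESeq2 gave 2 and 0. The beta subunits are small membrane proteins with an immunoglobulin fold that modulate sodium channel gating and act in cell adhesion. Scn3b, which encodes beta3 and is the beta subunit typical of the embryonic brain, was at 102 and 104 CPM in control against 106 and 109 CPM and did not pass (0.07 ± 0.04, adjusted p = 0.143). Scn2b, for beta2, stood at 1.05 against 1.03 CPM per kb, and Scn4b was not tested.

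Scn3a, the pore typical of embryonic and neonatal brain, was at 52.5 and 50.0 CPM against 46.9 and 46.6 CPM (-0.13 ± 0.05, adjusted p = 0.0282). The call for Scn3a was lost in 6 of 13 alternatives, among them without control replicate 1 (0.225), knockout replicate 1 (0.076) or knockout replicate 2 (0.0998). Scn2a1, the main pore of young axons, did not pass at 61.4 and 61.2 against 61.7 and 58.9 CPM, with a 95% interval of the ratio from 0.926 to 1.05. Scn8a (log2 fold change -0.07 ± 0.05) and Scn1a (-0.15 ± 0.07), pores of the mature axon initial segment and of interneurons, did not pass either.

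**Figure D2:**
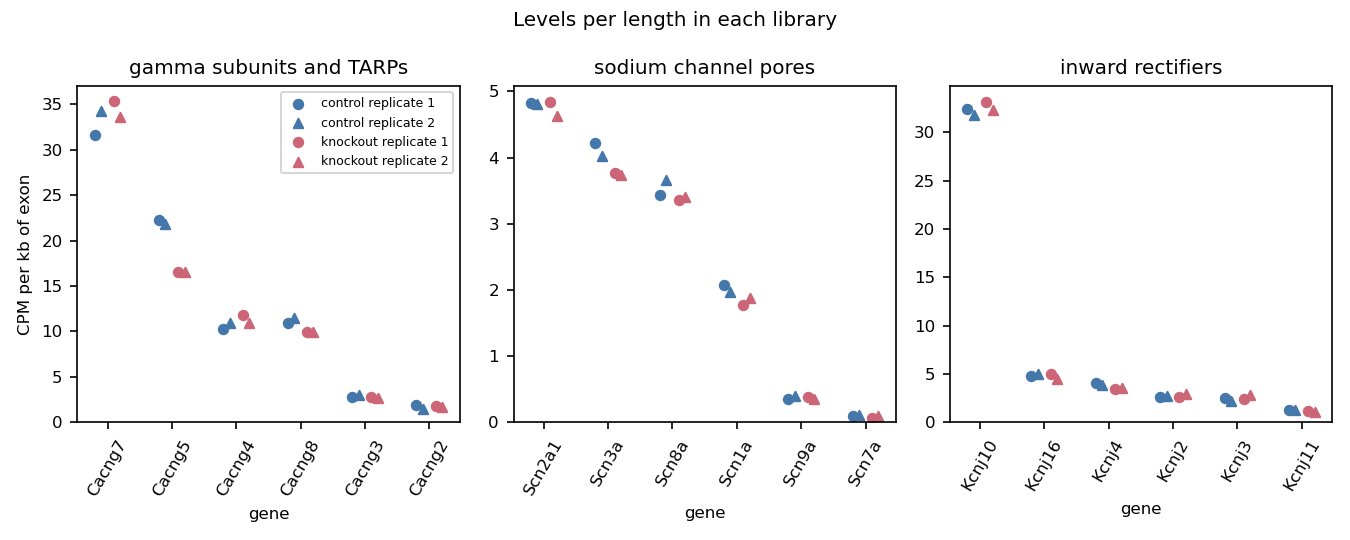
Levels in CPM per kb of exon (y axis, from 0) of gamma subunits and TARPs, sodium channel pores and inward rectifiers among those with the highest levels, 1 point per library. Cacng5 is lower in both labelled-knockout libraries than in both control libraries, whereas Cacng7, Scn2a1 and Kcnj10 show overlapping groups.

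The glial inward rectifiers did not pass. Kcnj10 encodes Kir4.1, the potassium channel through which astrocytes and oligodendrocyte precursors take up extracellular potassium, and Kcnj16 encodes Kir5.1, which joins it in heteromers. Kcnj10 stood at 175 and 172 CPM in control and 179 and 175 CPM in the labelled-knockout libraries, and the groups overlapped. The fitted difference was 0.03 ± 0.03 on the log2 scale (adjusted p = 0.499 by edgeR), with a 95% interval of the ratio from 0.978 to 1.06. Kcnj16 was at 19.0 and 19.6 CPM against 19.5 and 17.6 CPM (-0.05 ± 0.07, adjusted p = 0.618, interval 0.868 to 1.07). In the same libraries all 6 astrocyte markers fell, by 0.08 (Slc1a2) to 1.42 (Gfap) on the log2 scale. Aqp4, the water channel that shares astrocyte endfeet with Kir4.1, went from 148 to 96.0 CPM (-0.62 ± 0.03, adjusted p = 6.65e-18). The ratio of Kcnj10 to Aqp4 CPM was chosen after the values were seen. It was 1.17 and 1.17 in control and 1.88 and 1.81 in the labelled-knockout libraries, a description with no test. Kcnj10 overlapped between the groups, so the ratio mainly describes the fall of Aqp4. Of 6 oligodendrocyte precursor markers 4 were higher and 1 lower (1372 to 1411 against 1503 to 1546 CPM). The part of precursors in the Kcnj10 value was not tested.

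Of 33 neuronal channels, listed for their roles in firing and release, all were tested, 2 rose, 4 fell and 27 did not pass, with a median log2 fold change of -0.02. The share called was 18.2%, beside 33.1% of all genes tested. Beside them, 4 of 7 neuron markers were higher and the 7 summed to 2145 to 2151 CPM in control against 2454 to 2469 CPM. The summed level of the 33 channels was 1384 and 1393 CPM in the control libraries and 1415 to 1422 CPM in those labelled knockout. Within this sum Kcnc1 alone went from a mean of 330 CPM in control to 359 CPM. The higher sum therefore mainly describes that gene and not the list. Among those that rose was Kcnc1. The 4 that fell were Scn3a, Kcnma1, Kcnb2 and Kcnj6. The summed glial CPM divided by the summed neuronal CPM was 0.139 and 0.138 in control and 0.140 and 0.136 in the other group, and the groups overlapped. Kcnj10 makes up most of the glial sum, so the glial side of this ratio mainly describes that gene, and an exact permutation test of 2 against 2 libraries cannot go below 0.333.

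**Figure D3:**
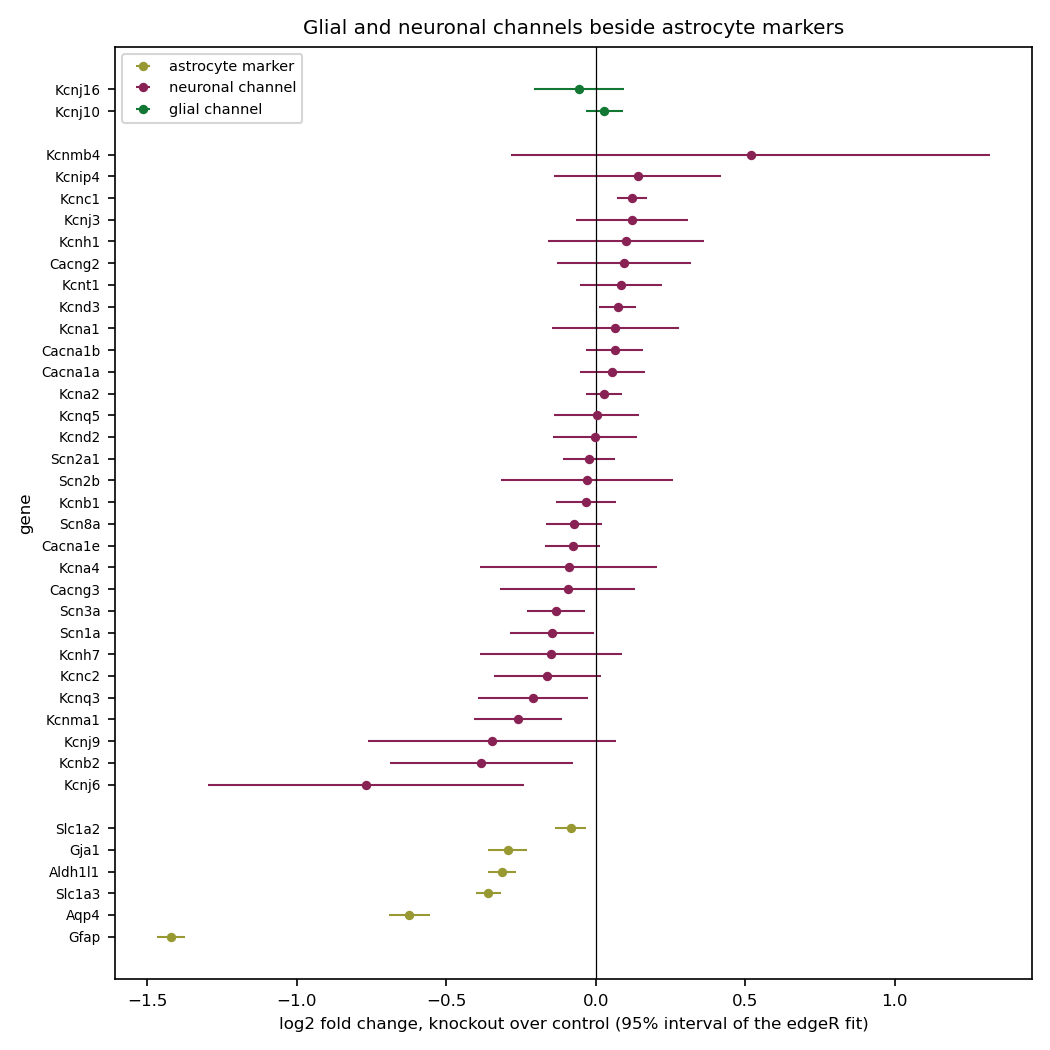
Log2 fold change with 95% interval (x axis) of the 2 glial channels, 30 of the neuronal channels and 6 astrocyte markers (y axis). The intervals of Kcnj10 and Kcnj16 include 0, 25 of the 30 neuronal channels drawn did not pass, and all 6 astrocyte markers lie below 0.

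Among Kv1 to Kv4 pores, 3 of 15 tested rose and 1 fell. Kcnc1 and Kcnc4 belong to the Kv3 group, whose fast gating supports high-frequency firing. Kcnc1, the most abundant channel member by CPM, was at 329 and 331 CPM in control and 358 and 360 CPM in the labelled-knockout libraries (0.12 ± 0.03, adjusted p = 0.000175). Kcnc4 was at 4.24 and 4.90 against 5.87 and 5.92 CPM (0.36 ± 0.14, adjusted p = 0.0379). The groups did not overlap for either gene, and the 95% interval of the Kcnc1 ratio ran from 1.05 to 1.13. The Kcnc4 call was lost without control replicate 1 (0.255), knockout replicate 1 (0.123) or knockout replicate 2 (0.126). Kcnc2, a Kv3 pore typical of interneurons, did not pass at 14.5 and 13.7 against 11.9 and 13.4 CPM (-0.16 ± 0.09). Kcnb2, a delayed rectifier pore, fell (-0.38 ± 0.15, adjusted p = 0.0481), a call lost in 9 of 13 alternatives and without any of the 4 libraries (adjusted p from 0.0514 to 0.268). The abundant pores Kcna2 (0.03 ± 0.03) and Kcnd3 (0.07 ± 0.03, adjusted p = 0.0562), an axonal Kv1 and a somatodendritic A-type Kv4 pore, did not pass.

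Of 8 electrically silent Kv subunits tested, which form no channel alone and modify Kv2 pores, Kcnf1 fell and the rest did not pass. Kcnf1 was at 20.9 and 21.1 CPM in control and 16.1 and 14.3 CPM in the labelled-knockout libraries (-0.47 ± 0.08, adjusted p = 5.53e-06), and it has a single exon on chromosome 12 from 17172100 to 17176888. Kcnq3, a neuronal Kv7 pore that helps carry the M-current limiting repetitive firing, did not pass (-0.21 ± 0.09, adjusted p = 0.0713). Of 8 KCNH pores 0 passed by edgeR, 0 at an unadjusted p under 0.05 and 0 by DESeq2, with log2 fold changes from -0.22 (Kcnh8) to 0.18 (Kcnh6).

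Among 10 tested auxiliary Kv subunits and regulators, 1 rose and 2 fell. Kcnip3 rose slightly, from 158 and 151 to 164 and 162 CPM (0.08 ± 0.03, adjusted p = 0.0459), a call lost in 6 of 13 alternatives, among them without control replicate 2 (0.392), knockout replicate 1 (0.209) or knockout replicate 2 (0.0757). Kcnip1, another of the KChIP proteins that bind Kv4 pores, fell from 22.1 and 24.7 to 19.8 and 20.2 CPM (-0.23 ± 0.07, adjusted p = 0.0109), a call lost without control replicate 2 (0.219) or knockout replicate 1 (0.057). Kcne4, a small single-pass subunit that inhibits Kv1 channels, was near the limit of counting. It had 16 and 13 counts in control and 3 and 2 in the labelled-knockout libraries (-2.47 ± 0.62, adjusted p = 0.00189). With DESeq2 its adjusted p was 0.0591. Kcnj8, an inward rectifier of pericytes and other mural cells, had 9 and 15 counts against 1 and 0 and was too scarce to test. Beside these, 3 of 6 mural markers were lower, Pdgfrb among them at 8.02 against 2.88 CPM. Rgs5 and Anpep also fell, and 1 marker, Acta2, rose from 7.95 to 11.8 CPM. The summed mural level was 121 CPM in control and 121 to 122 CPM in the others. Notch3, which did not pass, made up most of it at 101 against 104 CPM. All 5 fibroblast markers were lower. The part of these cells in the Kcne4 and Kcnj8 values was not tested.

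Among the other inward rectifiers, Kcnj6 fell, so that 1 of 11 tested passed. Kcnj6 and Kcnj9 encode G-protein-gated subunits that slow neuronal firing. Kcnj6 was at 1.74 and 2.02 CPM in control and 0.920 and 1.31 CPM in the labelled-knockout libraries (-0.77 ± 0.26, adjusted p = 0.0206), a call lost without control replicate 2 (0.142) or knockout replicate 1 (0.259). Its partner Kcnj9 overlapped, at 2.84 and 3.34 against 1.84 and 3.08 CPM, and the partner Kcnj3 did as well (0.12 ± 0.09). Kcnj2, the classical strong inward rectifier and also an endothelial channel, did not pass (0.04).

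Leak channels of the K2P family set the resting potential. Of 8 tested, 2 fell, beside 18.1% of all genes tested. Both belong to the mechanically gated TREK group. Kcnk2 (TREK-1) was at 50.7 and 47.5 CPM in control and 40.5 and 37.4 CPM in the labelled-knockout libraries (-0.33 ± 0.05, adjusted p = 2.5e-06). Kcnk10 (TREK-2) was at 13.8 and 14.7 against 10.7 and 12.3 CPM (-0.31 ± 0.09, adjusted p = 0.00712), a call lost without control replicate 2 (0.0584) or knockout replicate 1 (0.172). Neither gene's groups overlapped. Kcnk4 (TRAAK), the remaining member of that group, was scarce and overlapped at 1.33 and 1.24 against 1.27 and 1.58 CPM (0.15 ± 0.27). A gene on the opposite strand overlaps 604 bases of Kcnk2 exons, and no source used here states the strand setting of the counting, so reads of that stretch cannot be assigned with certainty. The same holds for Kcnma1 (1016 bases), Kcnj6 (380 bases), Kcnn2 and Cacnb2.

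Calcium- and sodium-activated potassium channels moved both ways, with 1 of 10 tested higher and 2 lower. Kcnma1, the large-conductance BK pore, fell from 22.5 and 20.5 to 17.6 and 18.2 CPM (-0.26 ± 0.07, adjusted p = 0.00486), a call lost without control replicate 1 (0.0951). The small-conductance pore Kcnn2 fell (-0.32 ± 0.12, adjusted p = 0.0404) and the intermediate-conductance pore Kcnn4, found in microglia and other non-neuronal cells, rose from 6.17 and 6.53 to 7.39 and 8.43 CPM (0.31 ± 0.12, adjusted p = 0.0405). Of the microglial markers 5 of 6 tested were lower (summed 5.68 to 7.28 against 1.96 to 2.58 CPM). Among the other channels listed for microglia, Kcna3 (-0.02 ± 0.10) and Kcnk13 (0.01 ± 0.33) did not pass, and Kcnk6 was not tested. The Kcnn2 and Kcnn4 calls were each lost in 6 of 13 alternatives, among them without control replicate 1 (0.0697 and 0.164), control replicate 2 (0.133 and 0.0632) or knockout replicate 2 (0.375 and 0.324). Of the 4 HCN pacemaker channels 0 passed by edgeR, 0 at an unadjusted p under 0.05 and 0 by DESeq2, with log2 fold changes between -0.09 (Hcn3) and -0.01 (Hcn2).

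Among 9 tested calcium channel pores, 1 rose and 0 fell by edgeR, and the same counts held at an unadjusted p under 0.05 and by DESeq2. Cacna1c, the L-type pore that links depolarisation to transcription, was at 50.5 and 51.8 CPM in control and 57.8 and 62.5 CPM in the labelled-knockout libraries (0.23 ± 0.05, adjusted p = 0.000126). The presynaptic pores Cacna1a (0.06) and Cacna1b (0.06), the R-type Cacna1e (-0.08) and the T-type Cacna1h (-0.05 ± 0.03) did not pass. Beta subunits, which carry the pore to the membrane, split. Cacnb3 rose from 55.2 and 58.2 to 65.0 and 61.6 CPM (0.16 ± 0.04, adjusted p = 0.00491), and Cacnb2 fell from 10.9 and 10.6 to 8.95 and 8.35 CPM (-0.31 ± 0.10, adjusted p = 0.0153). The Cacnb3 call was lost without control replicate 1 (0.0764) or knockout replicate 1 (0.101), and the Cacnb2 call without control replicate 1 (0.0675) or knockout replicate 2 (0.126). Of 4 alpha2delta subunits, which aid trafficking, Cacna2d3 fell (-0.25 ± 0.08, adjusted p = 0.0121 by edgeR). That call was lost without control replicate 1, at a log2 fold change of -0.22, or without knockout replicate 2, at -0.25. The abundant Cacna2d1 did not pass at 78.3 and 78.0 against 78.7 and 79.1 CPM.

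The gamma family includes the TARPs, which carry AMPA-type glutamate receptors to the membrane. Of 8 tested, 2 fell, beside 18.1% of all genes tested. Cacng5 was at 85.4 and 83.5 CPM in control and at 63.4 CPM in both labelled-knockout libraries (-0.41 ± 0.04, adjusted p = 6.52e-11), a ratio with a 95% interval from 0.709 to 0.794. Cacng8 was at 25.6 and 26.8 against 23.4 CPM in both (-0.16 ± 0.06, adjusted p = 0.0440), a call lost in 7 of 13 alternatives, among them without control replicate 2 (0.236), knockout replicate 1 (0.134) or knockout replicate 2 (0.126). Cacng7, the closest relative of Cacng5 and the most abundant of the family per length, overlapped at 77.2 and 83.6 against 86.2 and 82.1 CPM (0.07 ± 0.04), though it passed without control replicate 2 (log2 fold change 0.12, adjusted p = 0.0401), and Cacng4 did not pass (0.10 ± 0.05).

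**Figure D4:**
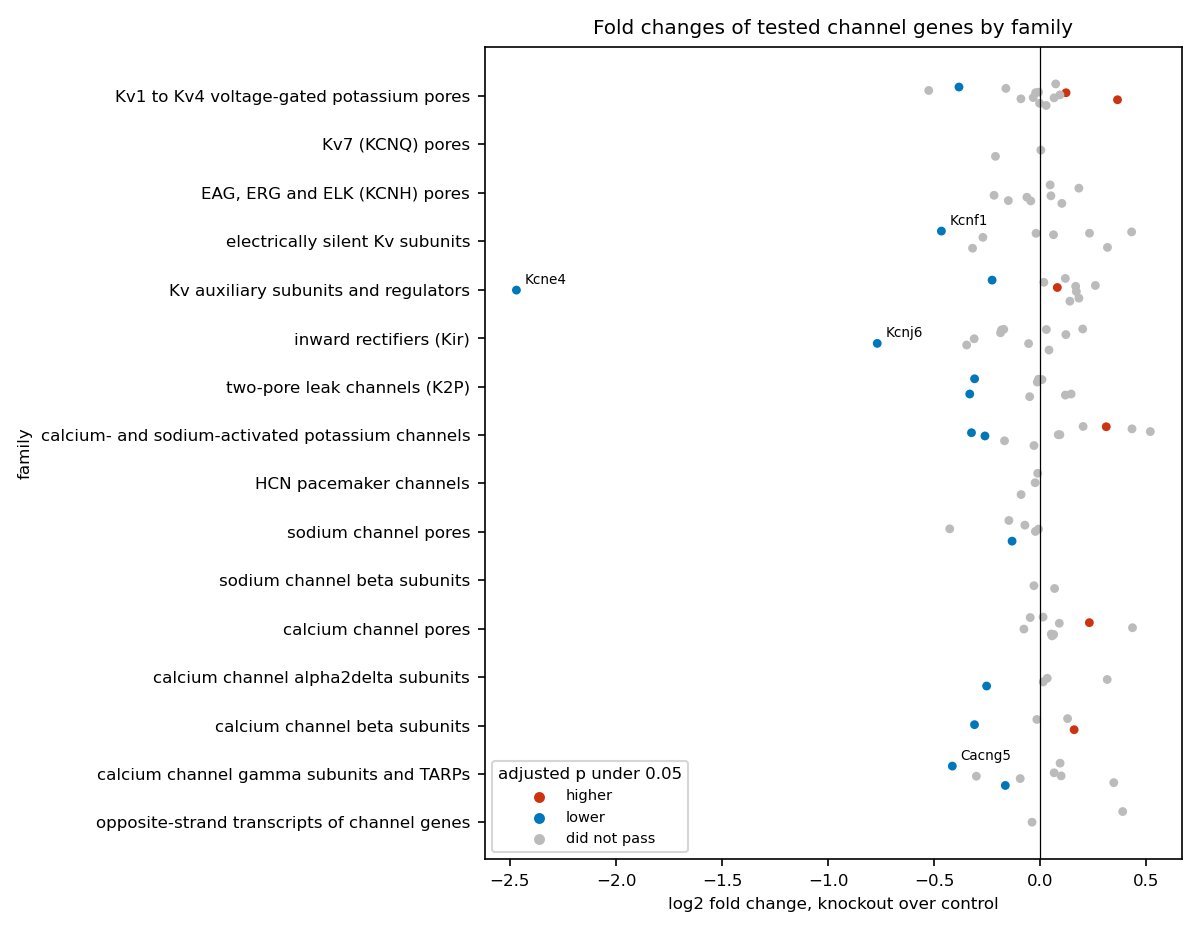
Log2 fold change of 109 of the tested channel genes (x axis, labelled-knockout libraries over control) by family (y axis), colour giving the call at an adjusted p under 0.05. Called genes are spread over most families, KCNH and HCN have none, and the 4 called genes that fell by more than 0.4 are named.

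Channel partners outside the symbol rule were listed by role. Of 10 partners of sodium channels, 2 rose and 2 fell, beside 15.1% and 18.1% of all genes tested. Ank3, whose product ankyrin-G anchors sodium and KCNQ channels at the axon initial segment, fell from 202 to 150 CPM (-0.43 ± 0.03, adjusted p = 2.12e-14), and Ank2 fell from 397 to 365 CPM (-0.12 ± 0.02). The adhesion gene Cntn1 rose from 138 to 165 CPM (0.26 ± 0.03) and the intracellular FGF gene Fgf11 from 68.1 to 74.4 CPM (0.13 ± 0.04). Of 10 tested partners of potassium channels, Dpp6, a Kv4 auxiliary protein, rose from 71.5 to 88.6 CPM (0.31 ± 0.04, adjusted p = 3.74e-08) and the rest did not pass.

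Of 11 tested partners of calcium channels, 4 fell and 2 rose, beside 18.1% and 15.1% of all genes tested. The small GTPase genes Gem (25.2 to 15.2 CPM, -0.72 ± 0.07) and Rrad (4.23 to 1.75 CPM, -1.28 ± 0.20), whose products inhibit calcium channels by binding the beta subunit, fell. The adaptor gene Stac2 fell from 44.8 to 28.5 CPM (-0.65 ± 0.05, adjusted p = 1.10e-12) and Stac by 0.37 on the log2 scale, while Stac3 rose from 1.66 to 2.67 CPM (0.69 ± 0.23). The presynaptic scaffold gene Bsn rose by 0.09 ± 0.04 (adjusted p = 0.0449). In the NALCN sodium leak complex, 1 of 4 tested genes rose, Fam155a (0.24 ± 0.08), and 1 fell, Unc79 (-0.16 ± 0.06), while the pore gene Nalcn did not pass (0.07 ± 0.07).

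Of the 3 X-linked members, Kcnd1 and Kcne1l did not pass and Cacna1f was not tested. Of the 3 opposite-strand transcripts, Kcnmb4os2 was at 3.29 and 3.37 CPM in control against 4.49 and 4.23 CPM (0.39 ± 0.16, adjusted p = 0.0557). It passed with upper quartile scaling, and it shares 693 exonic bases with Kcnmb4 on the other strand, so that the counts of this pair are uncertain.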

How the data were processed

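The data were raw counts per gene symbol, deposited by the authors as whole numbers with no normalization, 1 table per library. HISAT2 2.2.1, HTSeq 0.12.4, DESeq2 1.26.0 and the mm10 build are named in the submitters' processing notes. No source used here gives the annotation or the strand setting of the counting; the library kit marks strand, per the labels' protocols. The 5 summary lines of each table held 25.2% to 26.1% of entries and were left out.

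Genotypes were compared by edgeR 4.0.16 in R 4.3.3 over all genes: filterByExpr, scaling by the trimmed mean of M values (TMM), a quasi-likelihood F test (legacy off) and Benjamini-Hochberg adjustment over 15012 genes, with a threshold of 0.05. CPM used TMM-scaled sizes. Standard errors came from the fitted log2 fold change divided by the root of F. Levels per kb used merged exons of GENCODE M21 (GRCm38), in which all 138 members were found, Scn2a1 as Scn2a. A floor of 3 counts stands for 0.106 to 0.116 CPM and covers counting error only. The steps were tested on simulated counts. Alternatives included DESeq2 1.42.0 and limma 3.58.1.

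Members and lists were chosen with earlier results of these data known. Genes with full values were Kcnj10, Kcnj16, up to 3 called members per family with the smallest p, and the most abundant per length; further called members and neighbours are given by value. Replicate numbers come from the titles; the labels do not say that they pair samples. A few genes are counted in the totals but not reported here.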

Additional observations from a re-analysis of the deposited data

How the results depend on the processing

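Over 13 alternatives, 7 of the 24 called members (Cacna1c, Cacng5, Kcnc1, Kcnf1 and Kcnk2 among them) passed in each, and none of the 24 changed sign in any. Kcne4 was not tested under the filter of 50 counts. The number of members called higher (8) was 15 with upper quartile scaling, 4 with no low-count filter, 2 with DESeq2 and 4 at an adjusted p under 0.01; without 1 library it ranged from 3 to 8. The number called lower (16) was 5 with DESeq2 and 8 at an adjusted p under 0.01; without 1 library it ranged from 11 to 12. The replicate block gave 9 higher and 16 lower. Deviations of same-numbered libraries correlated at -0.0165 over genes. With 2 libraries per group this value cannot settle whether the numbers pair samples. The cause of these shifts was not tested, and with upper quartile scaling the median of all genes also moved, to 0.0315 from 0.0047. The median of members (-0.0028) was 0.024 with upper quartile scaling, and -0.00408 to 0.0124 without 1 library; it was also above 0 with total count scaling and both other low-count filters. Among genes that did not pass, the sign turned within the range of fits without 1 library for Kcnj16 (-0.131 to 0.0124), Kcnh2 (-0.0401 to 0.144), Hcn2 (-0.0675 to 0.0425) and Scn2a1 (-0.0572 to 0.00845). With upper quartile scaling Hcn2 was 0.0151 and Scn2a1 0.0040. A left-out library leaves 1 in its group, assumed to vary like the others. Low counts limit Kcne4, Kcnj6 and Kcnj8.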
